A study of Mus musculus with 6 samples.

Results

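The nuclear genes for the subunits of the oxidative phosphorylation system were described in mouse small-intestinal organoids treated with arachidonic acid, a polyunsaturated fatty acid. Members were taken by symbol, as all protein-coding rows named Ndufa, Ndufb, Ndufc, Ndufs or Ndufv plus a number, Sdha to Sdhd, Cyc1, Cox4 to Cox8 plus subunit letters, or beginning with Uqcr or Atp5. The pattern found 84 genes among 21865 protein-coding rows and 53953 rows in all, 36 of complex I, 4 of complex II, 9 of complex III, 18 of complex IV and 17 of complex V. Symbols are those of the GENCODE annotation M21, so ATP synthase genes appear as Atp5a1 or Atp5b where newer lists write Atp5f1a and Atp5f1b. Assembly factors and the 13 subunits encoded in the mitochondrial genome were not members. The organoids are epithelial cultures grown in Matrigel from crypts of wild-type C57BL/6 mice, taken from the proximal part of the small intestine, and were used at passage 3 to 5. In 3 libraries the organoids had received arachidonic acid for 3 days before passaging, and in 3 libraries they had received the vehicle, 0.1% ethanol, which both groups carried. On day 3 after passaging total RNA was extracted. The labels state neither the concentration of arachidonic acid nor the age of the mice. They also do not say whether replicates came from separate mice or cultures, so a p-value here compares the groups only with the variation among these libraries, part of which may be technical. The question the comparison addresses is how arachidonic acid changes the organoid transcriptome.

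Oxidative phosphorylation makes most of the ATP of a respiring cell in the inner mitochondrial membrane. Complex I takes electrons from NADH and complex II from succinate, both pass them to coenzyme Q, complex III hands them on to cytochrome c, and complex IV gives them to oxygen. The protons pumped on the way drive complex V, the ATP synthase. Most subunits are encoded in the nucleus and imported, a few in the mitochondrial genome, and each complex needs both kinds except complex II, which is wholly nuclear. In the intestine the pathway is known to be active in crypt stem cells and in absorptive enterocytes.

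The deposited values were FPKM, which scale fragments by gene length and by library size, and the step between low values implied 35.6 to 50.8 M fragments per library. Arachidonic acid replicate 1 stood apart: on the first principal component of all tested genes, with 85.2% of the variance, it lay at 10.2, against 58.1 and 54.6 for replicates 2 and 3 and -41.6 to -40.4 for the vehicle libraries. Counts of members called and the results of several genes are therefore given with and without it. The summed level of 8 markers of intestinal epithelium was 3030.5 to 3136 FPKM with vehicle and 4427 to 5331 FPKM with arachidonic acid. The keratin genes Krt8, Krt18 and Krt19 carried that difference and were called higher, while Epcam (adjusted p = 0.0166, log2 fold change -0.62 with SE 0.15) and Cdx2 (adjusted p = 0.0258, log2 fold change -0.34 with SE 0.09) were called lower and the other 3 were not called. All 6 fibroblast, 5 immune, 3 endothelial and 6 muscle markers stayed under 1 FPKM in every library, the highest single value being 0.455 for Itgam, and Lum and Cdh5 were listed at 0 throughout. A gene is said to be called, to rise or to fall where its adjusted p was under 0.05 in the limma model over all tested genes. Markers of the cell types within the epithelium moved with the treatment. Of 9 absorptive enterocyte markers, 2 were called higher and 4 lower, and the 9 summed to 1341 to 1674 FPKM with vehicle and 2009 to 5113 FPKM with arachidonic acid. The higher sum came mostly from Fabp1, at 1617 to 4094 FPKM with arachidonic acid, and without it the other 8 summed to 1028 to 1263 FPKM with vehicle against 392 to 1019 FPKM. The log2 fold change was negative for 7 of the 9, with a median of -0.84 and the lowest values in Sis (-3.51) and Lct (-3.11), both digestive enzymes. Both secretory markers that were tested, Lyz1 and Chga, were lower, and the 4 secretory markers summed to 221 to 319 against 50.5 to 151 FPKM. None of 5 cycling markers was called with all 6 libraries and all 5 were lower without arachidonic acid replicate 1. Beside these marker counts, 20.8% of all genes tested were called higher and 19.4% lower with all 6 libraries. Without that replicate the shares were 27.5% and 32.4%. The part of the marker shifts in the results below was not tested. In bulk RNA fewer cells of a type and less RNA per cell cannot be told apart.

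Subunit genes were mostly somewhat lower after arachidonic acid, in every complex, with changes that were small for single genes. Of the 78 members tested, those with a mean of at least 1 FPKM, 27 were called lower and 1 higher, where 19.4% of all 12913 genes tested were called lower, 20.8% higher and 40.2% in either direction. The log2 fold change was negative for 63 of the 78 tested members, with a median of -0.18 against -0.03 over all genes tested. Fold changes here are arachidonic acid minus vehicle on the scale of log2(FPKM + 1), which understates the change of low values. In 40 members each arachidonic acid library lay below each vehicle library, and in 4 each lay above, where 27.5% and 27.6% of all genes tested showed these patterns. Except for Cox7a1, the members that fell did so by modest amounts, with a median log2 fold change of -0.35 over 26 genes. Among the 78 tested members, 2 reached an absolute log2 fold change of 1, Cox6b2 and Cox7a1.

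The difference from vehicle was smaller in arachidonic acid replicate 1 than in the other arachidonic acid libraries. The median deviation of the tested members from the vehicle mean was -0.10 on the log2 scale in replicate 1, -0.28 in replicate 2 and -0.21 in replicate 3, and in the vehicle libraries it lay between -0.03 and 0.04. In 24 of the 27 members called lower, replicate 1 was nearer to the vehicle mean than the mean of replicates 2 and 3. The same count was not made over all genes. On the first principal component of all tested genes replicate 1 also lay between the groups. Without replicate 1, limma called 44 members lower and 3 higher, where 32.4% and 27.5% of all genes tested were called in these directions, and all 27 of the first call were among the 44. When any other single library was left out, 8 to 13 members were called lower, 10.3% to 16.7% of those tested, and none higher. That is close to the 9.63% to 11.5% of all genes called lower in the same fits, in which 13.3% to 15.1% were called higher. Rescaling each library to a fixed total (TPM) gave 20 lower and 4 higher, where 15.6% and 23.4% of all genes tested were called lower and higher, with a median of -0.12 against 0.03 over all genes tested.

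**Figure D1:**
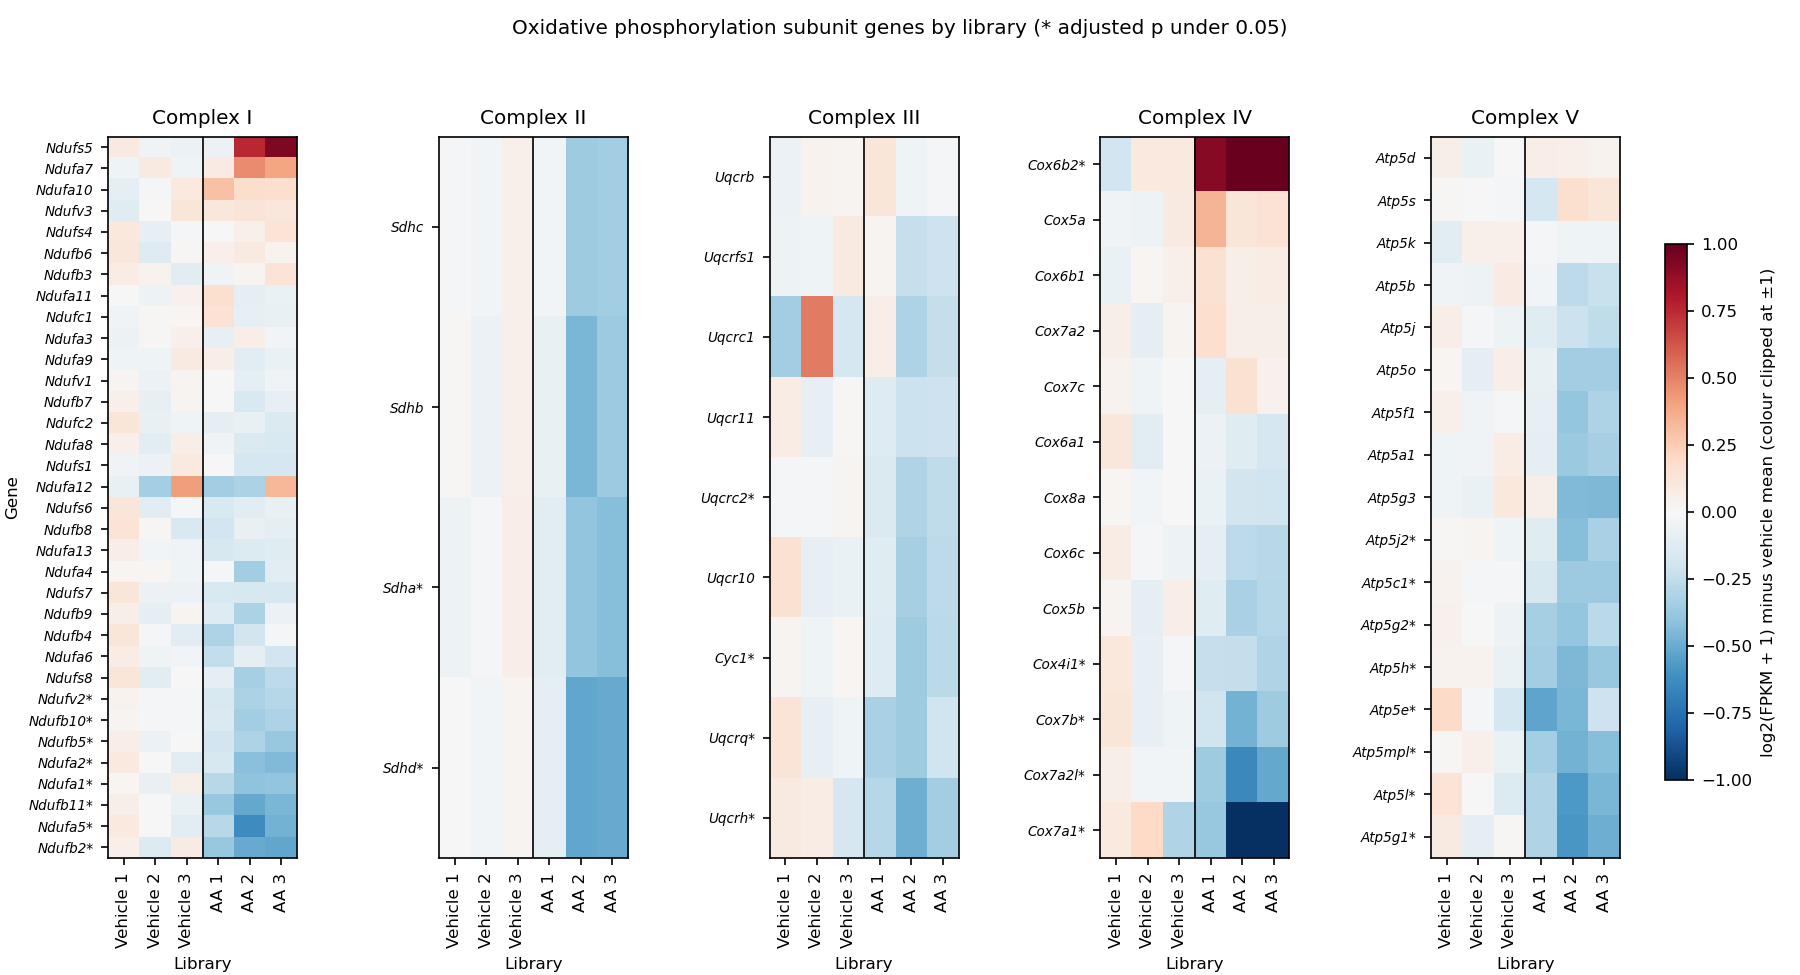
Deviation of 77 tested subunit genes (rows, by complex) from their vehicle means in each of the 6 libraries (columns), as log2(FPKM + 1), blue below and red above the vehicle mean, with colour clipped at 1. Asterisks mark genes called, and arachidonic acid replicate 1 (AA 1) is paler than AA 2 and AA 3 in most rows.

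All 5 complexes shared the direction, and the difference between complexes was not tested. The median log2 fold change was -0.11 over 35 tested members of complex I, -0.30 over the 4 of complex II, -0.23 over the 9 of complex III, -0.15 over 13 of complex IV and -0.28 over the 17 of complex V. Members called lower numbered 9 in complex I, 2 in complex II, 4 in complex III, 4 in complex IV and 8 in complex V, which is 25.7%, 44.4%, 30.8% and 47.1% of those tested in complexes I, III, IV and V, and the single member called higher belonged to complex IV. Replicates 2 and 3 of arachidonic acid reached medians of -0.43 and -0.39 in complex II and of -0.38 and -0.32 in complex V, against -0.14 and -0.10 in complex I. In replicate 1 the medians of the 5 complexes lay closer together, from -0.13 to -0.09.

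**Figure D2:**
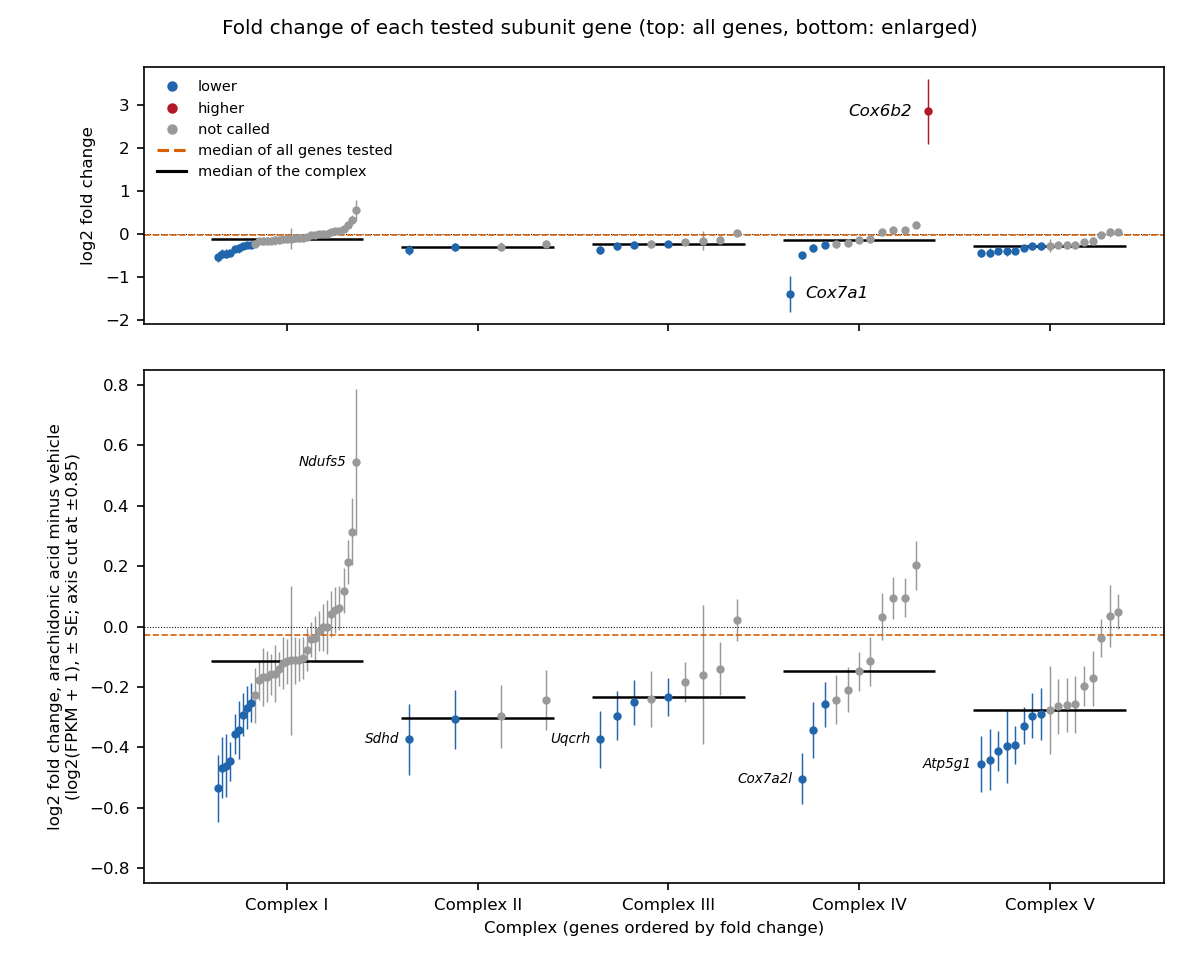
Log2 fold change (arachidonic acid minus vehicle, log2(FPKM + 1), ± SE from limma) of each tested member, ordered within its complex, on the full range above and enlarged below. Black lines give the median of each complex, from -0.30 to -0.11, and all lie below the dashed median of all genes tested, -0.03.

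Summed over their genes, the complexes differed in level and all 5 sums had a lower mean with arachidonic acid. Complex V was the highest, with summed FPKM of 9361 ± 198 in vehicle and 7955 ± 655 in arachidonic acid libraries (mean ± SD, n = 3). For complex IV the sums were 6993 ± 313 and 6377 ± 186, and for complex I 6221 ± 188 and 5625 ± 140. Complex III summed to 3354 ± 130 and 2846 ± 158, and complex II to 1545 ± 52.3 and 1252 ± 169. These are changes of the mean by -15.0%, -8.81%, -9.58%, -15.1% and -18.9% in that order, and -12.4% over all 84 members. No arachidonic acid sum reached a vehicle sum in any of the 5 complexes. Taken as a share of all FPKM in a library, the 84 members held 3.52%, 3.45% and 3.56% with vehicle against 3.37%, 3.11% and 3.12% with arachidonic acid. As shares the groups remained apart for all members together, for complex I, complex III and complex V. For complex II the share of arachidonic acid replicate 1, 0.192%, lay within the vehicle range of 0.189% to 0.206%, and for complex IV its share of 0.872% lay within 0.865% to 0.915%.

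**Figure D3:**
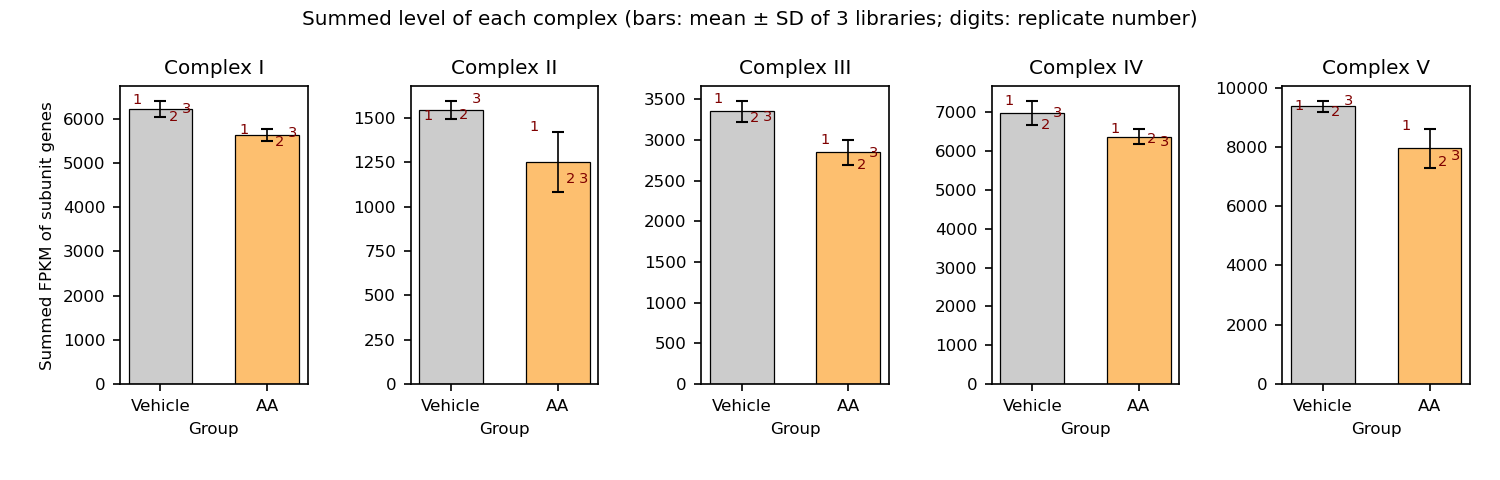
Summed FPKM of the member genes of each complex in vehicle and arachidonic acid (AA) libraries, as mean ± SD of 3 libraries, with digits at the value of each replicate. The arachidonic acid bar is the lower one in all 5 complexes, and in complexes II and V replicate 1 lies well above replicates 2 and 3.

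The share of complex I genes called lower, 25.7%, was near the 19.4% of all genes tested. The core subunits hold the flavin and the iron-sulfur clusters. Ndufv2, a core subunit with an iron-sulfur cluster next to the flavin, fell from 192, 185 and 185 to 168, 150.3 and 154 FPKM (adjusted p = 0.0220, log2 fold change -0.25 with SE 0.06), and lost its call when any library other than arachidonic acid replicate 1 was left out. The flavin-binding subunit Ndufv1, where NADH is oxidised, had 236, 223 and 236 FPKM with vehicle and 231, 218 and 226 with arachidonic acid. Its groups overlapped (adjusted p = 0.589, log2 fold change -0.04 with SE 0.06), and the sign turned to 0.02 under TPM rescaling. Ndufs1, the largest iron-sulfur subunit, stood at 117, 115 and 128 against 120.4, 106 and 106 FPKM (adjusted p = 0.283, log2 fold change -0.11 with SE 0.08). It overlapped through replicate 1, and without that library it was called lower (log2 fold change -0.17, adjusted p = 0.0481).

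The accessory subunits of complex I surround the core and carry no redox centre. Among 29 genes counted here by symbol as accessory subunits, Ndufa4 included, 7 fell and none was called higher. The share of 24.1% lower is near the 19.4% of all genes. Ndufb11, an accessory subunit of the membrane arm, had 234, 226 and 215 FPKM with vehicle and 173, 158 and 164 with arachidonic acid. The 3 arachidonic acid values lay close together and well below vehicle (adjusted p = 0.00347, log2 fold change -0.45 with SE 0.06). Ndufa1, a small membrane protein needed for assembly of the complex, stood at 164, 154 and 169 against 134, 123 and 123 FPKM (adjusted p = 0.00780, log2 fold change -0.36 with SE 0.07). Both kept their call under all 14 alternatives. Ndufb2, another small membrane-arm subunit, was low in all libraries, at 7.17, 6.17 and 7.33 FPKM with vehicle and 5.04, 4.56 and 4.50 with arachidonic acid (adjusted p = 0.0125, log2 fold change -0.47 with SE 0.10). The other accessory subunits that fell were Ndufa2, Ndufa5, Ndufb5 and Ndufb10, with log2 fold changes from -0.46 to -0.27. Ndufb2 and these 4 genes each lost their call when some single libraries were left out, never with arachidonic acid replicate 1 as that library, and Ndufa2 also when low genes were kept in. Ndufa4 had the highest mean level among the genes counted here by symbol in complex I, although its protein is known as a subunit of complex IV. It stood at 425, 426 and 408 FPKM with vehicle and 416, 329 and 390.4 with arachidonic acid, with replicate 1 inside the vehicle range (adjusted p = 0.220, log2 fold change -0.16 with SE 0.09).

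Some complex I genes went the other way, without passing the test. Ndufs5, an accessory subunit on the intermembrane side, had 82.3, 75.4 and 74.02 FPKM with vehicle and 74.2, 131 and 148 with arachidonic acid. Replicates 2 and 3 were far above every vehicle library while replicate 1 lay among them (adjusted p = 0.113, log2 fold change 0.54 with SE 0.24). Without replicate 1 the log2 fold change was 0.84 (adjusted p = 4.30e-05). Ndufa7, an accessory subunit of the matrix arm, also had its highest values in arachidonic acid replicates 2 and 3, with 158, 173 and 158 FPKM against 172, 226 and 214 (adjusted p = 0.0587, log2 fold change 0.31 with SE 0.11, and 0.43 with adjusted p = 0.000723 without replicate 1). Ndufa10, an accessory subunit related to nucleoside kinases, stood at 184, 194 and 209 against 240.0, 221 and 220.3 FPKM, with no overlap (adjusted p = 0.0525, log2 fold change 0.21 with SE 0.07). These 3 genes were picked out after their values were seen. Ndufs3, a core subunit, was listed at 0 in the vehicle libraries and at 0.113, 0.0403 and 0 FPKM in the arachidonic acid libraries, from 4, 1 and 0 fragments, and was not tested. Whether so low a level comes from how reads were counted was not tested. The same holds for the low levels of Ndufb2 and, in complex III, of Uqcrc1. Kbtbd4, a gene on the other strand that shares 4.04% of the exon bases of Ndufs3, was listed at 0 in all 6 libraries.

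Complex II, succinate dehydrogenase, belongs to the respiratory chain and to the tricarboxylic acid cycle, and 2 of its 4 genes fell. Sdha, the flavoprotein that oxidises succinate, had the highest level of the complex, with 891, 913 and 966 FPKM in the vehicle and 856, 703 and 688 in the arachidonic acid libraries (adjusted p = 0.0450, log2 fold change -0.31 with SE 0.10). Sdhd, one of the membrane anchors, stood at 265, 261 and 271 against 248, 185 and 188 FPKM (adjusted p = 0.0433, log2 fold change -0.37 with SE 0.12). In both genes replicate 1 was just below the lowest vehicle library and replicates 2 and 3 were far below it. Sdhb, the iron-sulfur subunit, likewise had replicate 1 as the arachidonic acid library nearest to vehicle, at 178, 169 and 182 against 167, 128 and 137 FPKM, and missed the threshold (adjusted p = 0.0614, log2 fold change -0.30 with SE 0.11). Sdhc, the other membrane anchor, had 177, 176 and 186 FPKM with vehicle and 176, 139.7 and 141 with arachidonic acid, with replicate 1 between vehicle libraries (adjusted p = 0.0909, log2 fold change -0.24 with SE 0.10). All 4 genes were called lower without replicate 1, with log2 fold changes from -0.51 to -0.35. Neither call of this complex held under TPM rescaling, where the adjusted p was 0.0854 for Sdha and 0.0685 for Sdhd, and over the 14 alternatives it ranged from 0.00122 to 0.149 and from 0.000101 to 0.138.

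Complex III, the cytochrome bc1 complex, had 4 of 9 genes lower, 2 of its 4 core subunits and 2 of its 5 small ones. Cyc1, which carries the haem that reduces cytochrome c, fell from 387, 369 and 385 to 348, 297 and 316 FPKM (adjusted p = 0.0352, log2 fold change -0.25 with SE 0.07). Uqcrc2, one of the large core proteins, stood at 407, 406 and 419 against 371, 333 and 345 FPKM (adjusted p = 0.0273, log2 fold change -0.23 with SE 0.06). Vehicle libraries of both genes lay within a narrow band and every arachidonic acid library was under it. Uqcrh, the acidic hinge protein that helps cytochrome c to dock, had 537, 529 and 448 FPKM with vehicle and 413, 359 and 394 with arachidonic acid (adjusted p = 0.0208, log2 fold change -0.37 with SE 0.09). Uqcrq, a small membrane subunit and the most abundant of the complex, stood at 675, 583 and 598 against 492, 482 and 537 FPKM (adjusted p = 0.0285, log2 fold change -0.29 with SE 0.08). Under TPM rescaling 2 of these 4 calls were lost, those of Cyc1 and Uqcrc2. All 4 were lost when low genes were kept in, those of Uqcrc2 and Uqcrq also with the replicate block, and each in 4 or 5 of the 6 fits that leave out a library. Uqcrfs1, the Rieske iron-sulfur protein, had 222, 223 and 244 FPKM with vehicle and 233, 195 and 198 with arachidonic acid, and its groups overlapped (adjusted p = 0.239, log2 fold change -0.14 with SE 0.09). Uqcrc1, the other core protein, was listed far below its partner, at 12.2, 23.05 and 13.96 against 16.6, 12.6 and 13.3 FPKM. Vehicle replicate 2 was the highest of the 6 libraries, and the sign of the log2 fold change, -0.16 (SE 0.23, adjusted p = 0.601), turned to 0.10 without it.

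Complex IV, cytochrome c oxidase, held both of the members with large changes, and both were tissue isoforms. Several of its subunits exist as a general form and as a form known from heart and skeletal muscle, testis or lung. Cox6b2, described as the testis form of a subunit on the intermembrane side, stood at 2.60, 3.40 and 3.39 FPKM in the vehicle libraries and at 6.73, 59.8 and 54.01 in the arachidonic acid libraries. All 3 arachidonic acid libraries were above all vehicle libraries, replicate 1 by a few FPKM and replicates 2 and 3 by far more. It was the single member called higher (adjusted p = 0.0242, log2 fold change 2.85 with SE 0.75), with means of 3.13 ± 0.463 and 40.2 ± 29.1 FPKM (mean ± SD, n = 3), a ratio of 12.8. The values rest on 46, 59 and 62 fragments with vehicle and 162, 1008 and 1242 with arachidonic acid. Without replicate 1 the log2 fold change was 3.81 (adjusted p = 1.71e-07). The gene was not called by limma-voom run on the recovered fragments (adjusted p = 0.119), when low genes were kept in (adjusted p = 0.0673) or when any of the other 5 libraries was left out (adjusted p = 0.0686 to 0.085), and over all alternatives the adjusted p ranged from 1.71e-07 to 0.119. Cox6b1, the general form, had 583, 618 and 634 FPKM with vehicle and 679.7, 636 and 645 with arachidonic acid. Its groups did not overlap, with the arachidonic acid libraries slightly the higher, and it did not pass the test (adjusted p = 0.268, log2 fold change 0.10 with SE 0.06). Even at its highest, Cox6b2 thus stayed at 59.8 FPKM beside 636 for Cox6b1 in the same library. Kmt5c, a histone methyltransferase gene next to Cox6b2, had 75.7, 71.96 and 65.3 against 65.9, 85.4 and 76.99 FPKM and was not called (adjusted p = 0.514, log2 fold change 0.09 with SE 0.11).

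Cox7a1, the heart and muscle form of a small membrane subunit, changed in the opposite direction. It stood at 17.6, 18.9 and 13.1 FPKM with vehicle and at 12.3, 4.29 and 3.05 with arachidonic acid. Replicate 1 lay just under the lowest vehicle library and replicates 2 and 3 far below it (adjusted p = 0.0377, log2 fold change -1.40 with SE 0.42). Without replicate 1 the log2 fold change was -1.91 (adjusted p = 4.29e-05), and over all alternatives the adjusted p ranged from 4.29e-05 to 0.115, with the call lost when low genes were kept in and when any of the other 5 libraries was left out. Cox7a2, the general form, had 357, 322 and 348 against 385, 357 and 355 FPKM and was not called (adjusted p = 0.298, log2 fold change 0.09 with SE 0.07). Cox7a2l, another gene of the Cox7a set, fell from 319, 301 and 299.9 to 239, 196 and 215 FPKM. All 3 arachidonic acid libraries were well below vehicle, and the call held under all 14 alternatives (adjusted p = 0.00546, log2 fold change -0.50 with SE 0.08). Capns1, the calpain small subunit gene next to Cox7a1, rose from 78.5, 82.8 and 79.8 to 109, 117 and 119 FPKM (adjusted p = 0.00212, log2 fold change 0.51 with SE 0.06).

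The general isoforms of complex IV were among the abundant members in both groups. Cox4i1, a subunit through which ATP is known to regulate the enzyme, had 1479, 1293 and 1352 FPKM with vehicle and 1167, 1167 and 1113 with arachidonic acid. The groups did not overlap (adjusted p = 0.0332, log2 fold change -0.26 with SE 0.07), and TPM rescaling, quantile normalization, the replicate block, keeping low genes and leaving out any library other than arachidonic acid replicate 1 each ended the call. Cox7b, a small membrane subunit, fell from 505, 440.3 and 452 to 405, 335 and 364 FPKM (adjusted p = 0.0265, log2 fold change -0.34 with SE 0.09), and lost its call when low genes were kept in and when any library other than arachidonic acid replicate 1 was left out. Cox6a1, the highest gene of the complex, stood at 1543, 1315 and 1422 against 1366, 1308 and 1269.6 FPKM, with overlapping groups (adjusted p = 0.289, log2 fold change -0.12 with SE 0.08), and its sign turned to 0.09 under quantile normalization. Cox8a, the general form of a very small membrane subunit, had 759, 736 and 749.9 FPKM with vehicle and 716, 660.3 and 651 with arachidonic acid (adjusted p = 0.108, log2 fold change -0.15 with SE 0.06). Cox5a, a subunit on the matrix side, was among the few members with higher values after arachidonic acid, 74.2, 73.4 and 80.9 against 96.9, 82.9 and 84.2 FPKM. Its groups did not overlap (adjusted p = 0.0879, log2 fold change 0.20 with SE 0.08), and it passed the threshold under TPM rescaling (adjusted p = 0.0425) and median-of-ratios scaling (adjusted p = 0.0379). The remaining tissue isoforms were near the floor of the data. Cox4i2, the lung form, was at no more than 0.147 FPKM, and Cox6a2, a muscle form, had 0.157, 0.201 and 0.343 against 0.174, 0.661 and 0.787 FPKM. Cox7b2, Cox8b and Cox8c were listed at 0 in all 6 libraries. These 5 genes and Ndufs3 are the 6 members that were not tested, and no tested member had a vehicle mean under 1 FPKM.

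**Figure D4:**
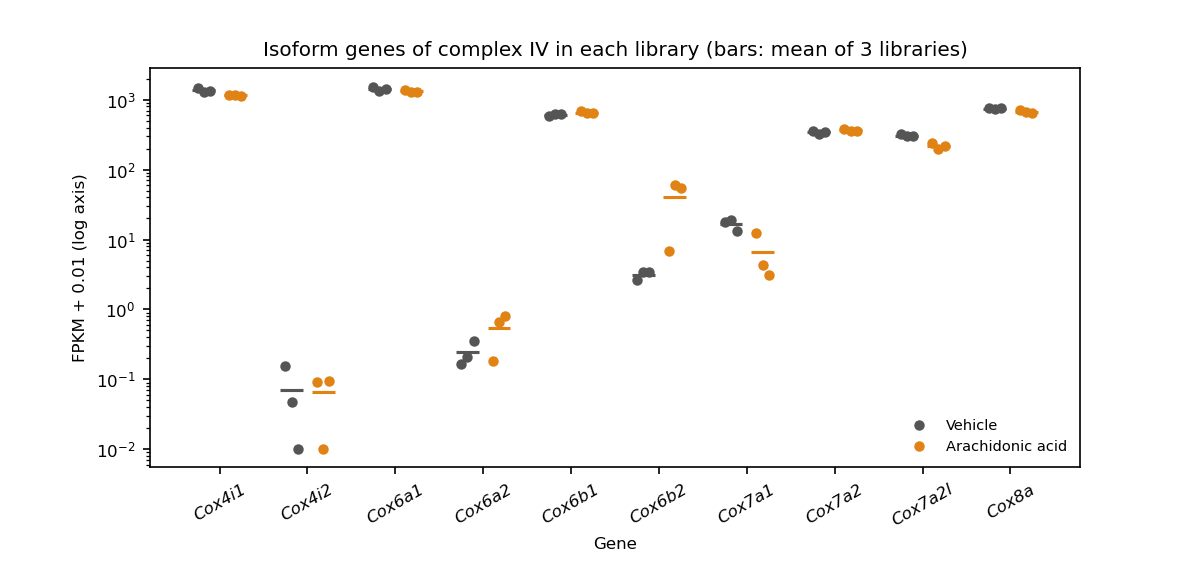
FPKM of complex IV isoform genes in each library on a log axis (0.01 added so that 0 can be drawn), with bars at the mean of 3 libraries. Cox6b2 lies at 2.60 to 3.40 FPKM in the vehicle libraries and at 6.73, 59.8 and 54.0 with arachidonic acid, Cox7a1 goes the other way, and the general forms stay well above both in every library.

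Complex V had 8 of 17 genes lower and none higher. Of the head and central stalk, where ATP is made, 2 of 5 genes fell. The catalytic beta subunit gene Atp5b was the most abundant of all members, with 2933, 2909 and 3192 FPKM in the vehicle and 2945, 2512 and 2575 in the arachidonic acid libraries. Replicate 1 lay inside the vehicle range and replicates 2 and 3 below it (adjusted p = 0.170, log2 fold change -0.17 with SE 0.09), and under quantile normalization the sign turned to 0.17. Atp5a1, the alpha subunit, had 1246, 1253 and 1347 against 1200.0, 992 and 1020.1 FPKM without overlap and missed the threshold (adjusted p = 0.0580, log2 fold change -0.26 with SE 0.09). The genes that fell in this group were Atp5c1, the gamma subunit of the rotating shaft (log2 fold change -0.30, adjusted p = 0.0210), and Atp5e, the epsilon subunit (log2 fold change -0.40, adjusted p = 0.0394). Atp5c1 lost its call when low genes were kept in and when any library other than arachidonic acid replicate 1 was left out. Atp5e lost it under TPM rescaling, median-of-ratios scaling, the replicate block and with low genes kept in, and without arachidonic acid replicate 2 or vehicle replicate 1 or 2.

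The proton-driven ring of the ATP synthase is built from copies of subunit c, a protein made from 3 genes that differ in their import sequence. Atp5g1 stood at 121, 107 and 115 FPKM with vehicle and 92.6, 76.04 and 81.1 with arachidonic acid (adjusted p = 0.00955, log2 fold change -0.46 with SE 0.09). Atp5g2 had 391, 379.7 and 366 against 301, 289 and 314 FPKM (adjusted p = 0.00785, log2 fold change -0.33 with SE 0.06). Both fell with no overlap between groups and kept their call under all 14 alternatives. Atp5g3, the most abundant of the 3, had 749, 737 and 827 against 802, 566 and 565 FPKM. Its replicate 1 lay between vehicle libraries and replicates 2 and 3 were far below them (adjusted p = 0.166, log2 fold change -0.28 with SE 0.15). Without replicate 1 it was called lower (log2 fold change -0.45, adjusted p = 0.00110).

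In the peripheral stalk, which holds the head still, 1 of 4 genes fell, and among the small membrane subunits 3 of 4 did. Atp5h, subunit d of the stalk, stood at 538, 539 and 503 FPKM with vehicle and 413, 385 and 405 with arachidonic acid (adjusted p = 0.00474, log2 fold change -0.39 with SE 0.06). Atp5mpl, a small proteolipid bound to the membrane part, had 445, 459 and 423 against 349, 318 and 329 FPKM (adjusted p = 0.00454, log2 fold change -0.41 with SE 0.07). In both genes the 3 arachidonic acid libraries were close to each other and below all vehicle libraries, and both calls held under all 14 alternatives. Atp5l and Atp5j2, small subunits of the membrane part, also fell, by 0.44 (adjusted p = 0.0154) and 0.29 (adjusted p = 0.0364) on the log2 scale. Atp5l lost its call in 4 of the 6 fits that leave out a library, and Atp5j2 in 5 of them, under TPM rescaling, with the replicate block and with low genes kept in. The other stalk genes, Atp5f1, Atp5j and Atp5o, had adjusted p values of 0.0560, 0.0514 and 0.0658, each with a negative log2 fold change. Atp5k (subunit e), Atp5d (the delta subunit) and Atp5s, a coupling factor, lay between -0.04 and 0.05 and were not called. Atpif1, the inhibitor that stops the synthase from running backwards and which the symbol pattern does not take in, fell from 122, 114 and 111 to 88.7, 74.8 and 83.3 FPKM (adjusted p = 0.00533, log2 fold change -0.49 with SE 0.08).

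The other genes of the pathway did not all follow the nuclear subunits. Of the 13 mitochondrial-genome subunits, 9 were called lower and none higher, 69.2% lower where 19.4% of all genes were. Their median log2 fold change was -0.998. mt-Cytb, the cytochrome b of complex III, had 4790.4, 5500.3 and 4492 FPKM with vehicle and 2887, 2124 and 1931 with arachidonic acid (adjusted p = 0.00372, log2 fold change -1.11 with SE 0.16). mt-Atp6, the proton channel subunit of the ATP synthase, stood at 115, 223 and 138 against 36.4, 29.4 and 34.7 FPKM (adjusted p = 0.00149, log2 fold change -2.16 with SE 0.23), and mt-Co3, a core subunit of complex IV, changed by -1.13 (adjusted p = 0.00212) on the log2 scale. Since mt-Atp6, mt-Atp8 and mt-Co3 lie end to end or overlap in the mitochondrial genome, their counts are uncertain. mt-Atp6 and mt-Co3 were also listed far below mt-Cytb, with vehicle means of 159 and 68.3 against 4927 FPKM. mt-Co1, the most abundant of the 13, had 9573, 11769 and 8723 against 8232, 8798 and 8101 FPKM with overlap. It was not called (adjusted p = 0.163, log2 fold change -0.25 with SE 0.13). Of 15 regulators of mitochondrial gene expression, 5 fell and none was called higher, 33.3% lower where 19.4% of all genes were. The count was 3 with the replicate block, 2 with low genes kept in and 1 to 8 with a library left out. They included Polrmt, the mitochondrial RNA polymerase, from 27.8, 28.05 and 28.1 to 21.4, 17.6 and 20.9 FPKM (adjusted p = 0.00733, log2 fold change -0.47 with SE 0.09), Twnk, the mitochondrial DNA helicase (log2 fold change -0.32, adjusted p = 0.0167), and Esrra, the estrogen-related receptor that drives many subunit genes (log2 fold change -0.29, adjusted p = 0.0253). Tfam, which packages mitochondrial DNA, and Tfb1m, an RNA methyltransferase of the mitochondrial ribosome, were the others. Polrmt kept its call under all 14 alternatives, while Twnk lost it with the replicate block, Esrra, Tfam and Tfb1m with low genes kept in, Tfb1m under 5 further settings, and all 4 in 4 or 5 of the 6 fits that leave out a library. The coactivator Ppargc1a was low, at 2.83, 3.02 and 3.05 against 3.04, 3.27 and 2.62 FPKM, and was not called (adjusted p = 0.992, log2 fold change 0.00 with SE 0.11). Nrf1 and Gabpa, whose factors bind many subunit promoters, were not called (adjusted p = 0.113 and 0.162) and had log2 fold changes of -0.45 and -0.46 without arachidonic acid replicate 1 (adjusted p = 0.000627 and 0.00107).

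Of 52 tested assembly factors, 14 fell and 3 rose, 26.9% and 5.77% where 19.4% and 20.8% of all genes did. Fmc1, which serves ATP synthase assembly, fell from 61.6, 54.5 and 54.5 to 34.6, 23.97 and 26.1 FPKM (adjusted p = 0.00301, log2 fold change -0.9999 with SE 0.14). Dmac1 and Ndufaf8, assembly factors of complex I, fell by 0.76 and 0.51 on the log2 scale (adjusted p = 0.0114 and 0.0131). All 3 factors that rose serve complex IV. Cox17, the copper chaperone, rose from 4.06, 3.76 and 4.18 to 6.47, 10.3 and 10.2 FPKM (adjusted p = 0.00655, log2 fold change 0.97 with SE 0.17). Higd1a, a hypoxia-induced protein that binds the oxidase, rose from 66.99, 79.98 and 70.4 to 106, 122 and 114 FPKM (adjusted p = 0.00294, log2 fold change 0.65 with SE 0.09), and the third was Cox15, an enzyme of haem a synthesis (log2 fold change 0.31, adjusted p = 0.0271), whose call was lost with the replicate block and in 4 of the 6 fits that leave out a library. Dmac1 and Ndufaf8 lost theirs without vehicle replicate 1. Of 15 genes for cytochrome c and coenzyme Q synthesis, 3 rose and 3 fell, shares near those of all genes. Coq8a, an atypical kinase needed for coenzyme Q synthesis, fell from 105, 115 and 102 to 34.7, 12.7 and 11.7 FPKM (adjusted p = 0.00363, log2 fold change -2.56 with SE 0.38). Pdss1, which builds the tail of coenzyme Q, fell from 106, 108 and 123 to 58.8, 27.2 and 26.7 FPKM (adjusted p = 0.00631, log2 fold change -1.65 with SE 0.29). By contrast Coq3, a methyltransferase of the same route, rose with a log2 fold change of 0.83 (adjusted p = 0.00251), and Cycs, cytochrome c itself, with one of 0.30 (adjusted p = 0.00904). Of 6 tested genes whose proteins bring electrons to coenzyme Q without complexes I and II, 2 rose and none fell. That is 33.3% higher where 20.8% of all genes were. Gpd2, the mitochondrial glycerol-3-phosphate dehydrogenase, rose from 41.5, 45.2 and 50.1 to 89.99, 126 and 114 FPKM (adjusted p = 0.00149, log2 fold change 1.24 with SE 0.13), and Sqor, sulfide quinone oxidoreductase, from 50.4, 56.8 and 51.8 to 109, 152 and 166 FPKM (adjusted p = 0.00166, log2 fold change 1.39 with SE 0.16). Among carriers of the inner membrane, Slc25a4, an ADP/ATP exchanger, rose by 0.67 (adjusted p = 0.00138), the phosphate carrier Slc25a3 by 0.22 (adjusted p = 0.0460) and the uncoupling protein gene Ucp2 by 0.44 (adjusted p = 0.00257) on the log2 scale. Slc25a5, a more abundant ADP/ATP exchanger, had 813, 822 and 901 against 991, 891 and 937 FPKM with overlap. It was not called (adjusted p = 0.142, log2 fold change 0.15 with SE 0.07). These carriers belong to a list of 8 tested genes related to the subunits. Of the 8, 3 rose and 2 fell, 37.5% and 25% where 20.8% and 19.4% of all genes did. Those that fell were Atpif1 and Usmg5 (log2 fold change -0.32 with SE 0.10, adjusted p = 0.0423). The call of Slc25a3 was lost with low genes kept in, quantile normalization, the replicate block and in 4 of the 6 fits that leave out a library.

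**Figure D5:**
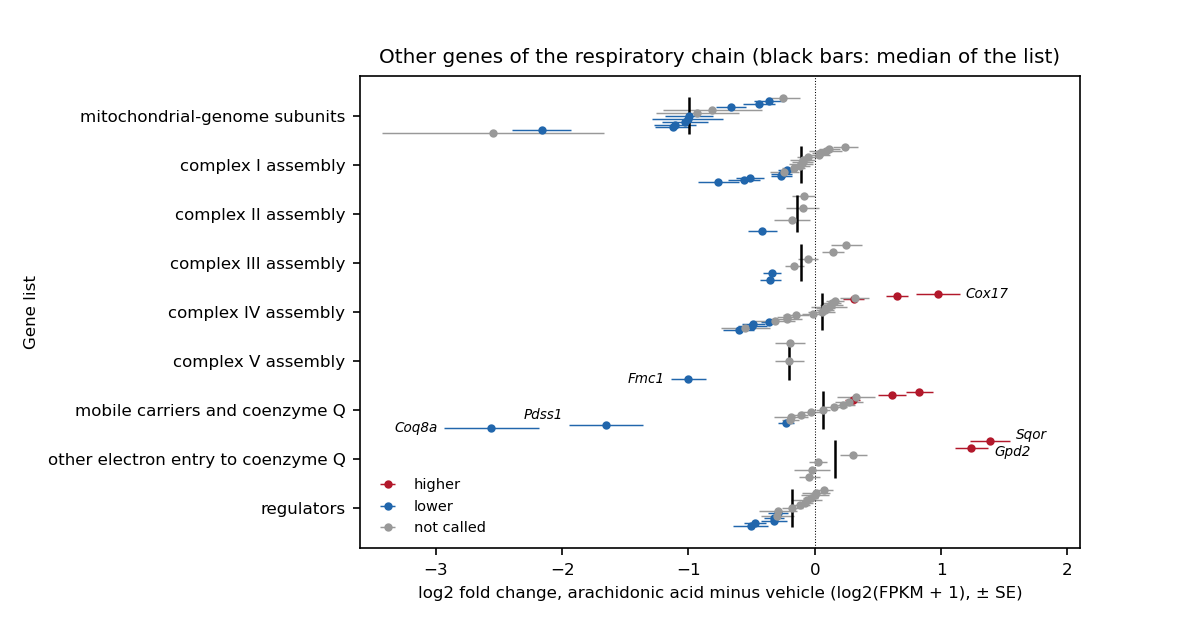
Log2 fold change (arachidonic acid minus vehicle, log2(FPKM + 1), ± SE) of each tested gene in 9 lists of other respiratory-chain genes, coloured by call, with black bars at the list medians. The mitochondrial-genome subunits have a median of -0.998. Coq8a, Pdss1, Sqor, Gpd2 and Cox17 lie far from the medians of their lists, which are 0.06 to 0.16.

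Since many subunit genes had lower values together, their promoters were searched for letters that are known targets of shared regulators. RefSeq windows of 300 bases (GRCm38.p6, from 250 before to 50 after the start) matched 68 of the 84 members, in 73 windows. The NRF1 core GCGCATGC was present on either strand in 13.7% of the member windows and in 2.71% of all 32851 windows. The ETS motif CCGGAAG, bound by GABPA, was in 21.9% against 8.86%, and the estrogen-related receptor site TCAAGGTCA in 2.74% against 0.423%. These shares are a description: member windows also had more G and C, with a median of 57.3% against 52.7%. Between members called lower and members not called, the shares were 9.09% and 17.0% for the NRF1 core, 22.7% and 21.3% for the ETS motif and 4.55% and 2.13% for the receptor site, the last from 1 window each. A match is not a binding site, and a window without these letters says nothing about the factor.

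The 4 promoters below show the Cox6b isoform pair and both kinds of match in genes that fell, with the 250 bases before the start printed 5′ to 3′ on the strand of the gene and matches in capitals. Cox6b2 (chr7:4753095-4753344, minus strand) held none of the 3 motifs, and Cox6b1 (chr7:30626115-30626364, minus strand) held the ETS motif from 28 to 22 bases before the start. Sdhd (chr9:50603850-50604099, minus strand) held the ETS motif from 46 to 40 bases before the start, and its receptor site, 37 to 45 bases past the start, is not printed. Atp5g2 (chr15:102671048-102671297, minus strand) held 2 NRF1 core matches on opposite strands that overlap each other, from 42 to 33 bases before the start.
Cox6b2: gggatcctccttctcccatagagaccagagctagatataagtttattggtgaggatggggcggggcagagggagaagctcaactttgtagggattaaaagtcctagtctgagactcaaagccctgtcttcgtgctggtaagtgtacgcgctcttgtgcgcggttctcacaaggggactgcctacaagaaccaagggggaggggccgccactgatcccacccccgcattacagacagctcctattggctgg
Cox6b1: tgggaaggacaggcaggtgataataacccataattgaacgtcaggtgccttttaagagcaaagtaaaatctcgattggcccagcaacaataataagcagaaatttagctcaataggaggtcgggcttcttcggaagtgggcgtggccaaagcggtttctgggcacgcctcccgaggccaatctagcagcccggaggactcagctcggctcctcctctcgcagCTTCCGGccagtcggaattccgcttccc
Sdhd: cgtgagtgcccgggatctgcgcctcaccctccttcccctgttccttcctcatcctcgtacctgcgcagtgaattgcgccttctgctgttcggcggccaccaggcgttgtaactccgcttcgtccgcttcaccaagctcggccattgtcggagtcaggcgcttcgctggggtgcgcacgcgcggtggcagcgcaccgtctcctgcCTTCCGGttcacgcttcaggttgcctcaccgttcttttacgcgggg
Atp5g2: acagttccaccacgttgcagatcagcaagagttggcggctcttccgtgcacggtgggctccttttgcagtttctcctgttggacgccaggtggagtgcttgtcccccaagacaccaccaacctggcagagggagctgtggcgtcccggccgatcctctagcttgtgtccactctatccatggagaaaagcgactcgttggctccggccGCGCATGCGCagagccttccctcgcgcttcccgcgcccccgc

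Some members could share reads with other genes, and the labels do not say whether counting used strand. In the GENCODE M21 annotation 28 members, 9 of them called lower, share exon bases with another gene, at most 39.0% in Ndufb6. Ndufb11 shares 12.9% of its exon bases with Rbm10, an RNA-binding protein gene with a mean of 37.9 FPKM. A further 8 rows matched the symbols but are processed pseudogenes, copies of Cox6c, Uqcrh, Atp5c1, Atp5k and Atp5l, the highest being Cox6c2 at 12.2 to 15.7 FPKM. The values of those 5 parent genes are therefore uncertain where reads fit a copy. The pattern takes no suffix after complex I and II symbols, and copies under other names were not sought. Other members may also have copies.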

How the data were processed

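RNA-seq of 3 vehicle and 3 arachidonic acid libraries was used. The deposited tables, 1 per library, name no unit. From the values they were taken as FPKM that the authors made, fragments divided by gene length and library size. The submitters' processing notes list featureCounts 1.5.0-p3, HISAT2 2.0.5 and StringTie 1.3.3b without their roles. The genome build, annotation and strand setting of the authors are not stated in the labels. Mean transcript lengths of GENCODE M21 turned 96.3% to 96.7% of the values under 100 fragments into whole numbers within 0.1. The depth of 35.6 to 50.8 M fragments is the total these steps imply, and counting error is only part of the spread between replicates.

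Genes were tested where their mean over the 6 libraries reached 1 FPKM, as log2(FPKM + 1) with limma 3.58.1 in R 4.3.3, with a variance trend and no block. Two-sided p-values were adjusted over 12913 genes by Benjamini-Hochberg, at a threshold of 0.05. The test was tried on simulated data. Limma-voom on recovered fragments called 2570 genes higher and 2480 lower over all genes. The alternatives were no filter, a minimum of 5 FPKM, 0.1 as pseudocount, quantile, TPM and median-of-ratios scaling, the replicate number as a block, voom, and each library left out. Members named were, in each complex, up to 4 called in each direction with the smallest p, the most abundant, isoform sets and catalytic subunits, and up to 3 called genes of each pathway list. Genes outside this rule are Sdhc, Ndufa2, Ndufa5, Ndufa7, Ndufa10, Ndufb5, Ndufb10, Ndufs3, Ndufs5, Ndufv2, Cox15, Cycs, Slc25a3, Slc25a5, Usmg5, mt-Co1, Epcam, Cdx2, Fabp1, Sis, Lct, Tfam, Tfb1m, Ppargc1a, Nrf1, Gabpa and the other ATP synthase genes, named after their values were seen. For 1 member and 1 marker gene the values are not reported here, although the counts over all members and markers include them. The members and lists were chosen with earlier results of these data known, and some list genes, markers and neighbouring genes were added later. Python 3.11.15, numpy 2.4.6, pandas 2.3.3 and matplotlib 3.10.9 were also used.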

Additional observations from a re-analysis of the deposited data

How the results depend on the processing

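Counts of called members depended on the processing more than fold changes did. The labels do not say whether the replicate numbers pair the samples. Same-numbered deviations had correlations of -0.08, 0.21 and -0.06, and differently numbered ones lay from -0.18 to 0.19. With 3 libraries a group these values cannot decide it. With the replicate block 22 members were called lower and 2 higher (15.5% and 17.5% of all genes), 0 lower in complex II, and 3 regulators lower. With no filter on low values, which tests more genes, 14 members were called lower and 0 higher (7.46% and 9.11% of all genes), with 0 lower in complex II, 0 in complex III, 1 in complex IV and 5 in complex V, and 2 regulators lower. With limma-voom 0 members were called higher, where 20.1% of all genes were. TPM rescaling gave 4 higher (2 in complex IV), 0 lower in complex II and 2 in complex III, medians of -0.0551 and -0.0886 in complexes I and IV, and summed levels changed by -5.76% and -4.94% there. Median-of-ratios scaling gave 3 higher, 2 of them in complex IV. Over all genes 21.6% were called higher with that scaling and 23.4% with TPM rescaling. Quantile normalization gave medians of -0.16 in complex I and -0.0904 in complex IV. Signs turned for Ndufv1 with TPM rescaling (0.0175), for Cox6a1 and Atp5b with quantile normalization (0.0861 and 0.17) and for Uqcrc1 without vehicle replicate 2 (0.0985, with -0.333 as the lowest value when another library was left out), none of them called. The cause of these changes was not tested.

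Leaving out 1 library at a time gave 8 to 44 members lower and 0 to 3 higher. Members called lower ranged from 3 to 12 in complex I, 0 to 4 in complex II, 0 to 7 in complex III, 1 to 7 in complex IV and 4 to 14 in complex V, and those higher in complex IV from 0 to 1. Assembly factors lower ranged from 5 to 25 and higher from 2 to 8, and regulators lower from 1 to 8. The highest of each range came without arachidonic acid replicate 1, which stands apart. In that fit 32.4% of all genes tested were called lower and 27.5% higher. When another library was left out, these shares were 9.63% to 11.5% and 13.3% to 15.1%. Of the 27 members called lower, 8 kept the call under all 14 alternatives and 14 under the 8 that leave out no library. The median over all members stayed between -0.24 and -0.12, and the mitochondrial-genome subunits called lower between 6 and 11. Depth is known only from inference, and 3 libraries a group limit the precision.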
